A study of Mus musculus with 8 samples.

Results

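Water crosses the cells of the kidney tubule through aquaporins, a family of membrane channels, and the collecting duct opens and closes this route under the control of vasopressin. The genes described here are 9 aquaporins (Aqp1, Aqp2, Aqp3, Aqp4, Aqp5, Aqp6, Aqp7, Aqp8 and Aqp11) and Avpr2, the gene of the vasopressin V2 receptor. They were taken by gene name from the deposited table, in which all 10 were present among 35275 genes. The genes were chosen by their KO against WT levels in these same mice, so those levels and differences are given as a description, and no p adjusted over the 10 genes alone is given.

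The libraries come from the left kidneys, taken whole, of 8 male mice 40 weeks old, 1 library per mouse. The 4 KO mice (Ctrp1-/-) lacked both copies of C1qtnf1, which encodes the secreted protein CTRP1, and the 4 WT mice were their wild-type littermates. In both groups the background was C57BL/6J and the food, from 6 weeks of age, was a high-fat diet (60% kcal from fat). The mutant allele came from 129S5-derived embryonic stem cells and was backcrossed, and it lacks 679 bp of exon 4 and the adjoining untranslated region in every cell of the body, since no promoter or Cre restricts it.

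Values are FPKM, read counts divided by gene length and library size, which allow levels of different genes to be compared per length. The libraries held 17884140 to 20344859 reads. C1qtnf1 was at 0.322 to 0.883 FPKM in KO kidneys and at 5.27 to 5.55 FPKM in WT kidneys, so each library matched its genotype label. KO replicate 2 stood apart from the other libraries. It had the lowest mean log2 level of the proximal tubule and endothelial marker lists. Early response genes were highest in it, such as Jun at 70.2 FPKM and Fos at 7.79 FPKM. The heat shock genes Hspa1a, Hspa1b and Dnajb1 were at 5.59, 10.8 and 23.0 FPKM there, the lowest among the KO kidneys. This library received a weight of 0.0994 when limma weighted each library by its fit, against 0.647 to 2.3 for the others. Kidney segments were represented by their markers in all 8 libraries. Among 12118 genes tested, limma called 5 (0.0413%) at an adjusted p under 0.05, 2 of them higher (0.0165%) and 3 lower (0.0248%) in KO.

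Vasopressin released from the pituitary binds the V2 receptor on the blood side of collecting duct principal cells. The receptor acts through a stimulatory G protein, adenylyl cyclase, cyclic AMP and protein kinase A, which sends vesicles holding AQP2 to the urine side of the cell and raises transcription of Aqp2. Water leaves these cells on the blood side through AQP3 and AQP4. Upstream of the collecting duct, AQP1 carries most of the water that the proximal tubule and the thin descending limb take back, without regulation by vasopressin.

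RefSeq promoters (build GRCm38.p6, 250 bases before to 50 bases after the start of the gene) were at hand for 9 of the 10 genes, all except Aqp4, and were searched on both strands for 4 sets of letters tied to transcription of these genes. They were TGACG, the core of the cyclic AMP response element, TGACGTCA, the full element, AGATAA, bound by GATA factors, and TATAAA, the TATA box. The core TGACG was present in the window of Aqp2 among the 9 genes and in 20.8% of all 32851 promoters. AGATAA was present in Aqp2 and Aqp7 and in 11.2% of promoters, TATAAA in Aqp3 and Avpr2 and in 13.6%, and the full element in 0 of the 9 genes and in 1.79% of promoters. Stretches of 30 bases around the matches of the collecting duct genes and of Aqp7 are shown on the strand of the gene, because Aqp2 and Aqp3, made by the same cells, differ in them. Capitals mark the matched letters, which read in reverse complement in Aqp2 (both matches) and in Avpr2.
Aqp2, chr15:99578837-99578866, plus strand: aacagagaCGTCAatccTTATCTggagtcc
Aqp3, chr4:41098195-41098224, minus strand: gcaggctgagcgTATAAAgggcgccacctg
Avpr2, chrX:73892045-73892074, plus strand: ttctgactgttcTTTATAttccctgcccag
Aqp7, chr4:41048251-41048280, minus strand: ctctggtcttagAGATAAgccagacacttg
Counted from the start of the gene, the core in Aqp2 began at position -211 and the GATA letters at -202, so both lay within the same short stretch, while TATAAA in Aqp3 began at -29. The matches describe letters in these windows, and no binding was measured.

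Aqp2, the vasopressin-regulated water channel of the apical side of principal cells, was higher on average in KO kidneys. It was at 306, 364, 228 and 353 FPKM in KO replicates 1 to 4 and at 183, 242, 222 and 166 FPKM in WT replicates 1 to 4. KO replicates 1, 2 and 4 lay above every WT kidney, while KO replicate 3 lay between WT replicates 2 and 3, so the groups overlapped. The mean was 313 ± 61.8 FPKM in KO and 203 ± 35.1 FPKM in WT (SD, n = 4 each), a ratio of 1.54. On the log2(FPKM + 1) scale the difference was 0.64 ± 0.18 (SE), with a 95% interval from 0.23 to 1.05. It did not pass the threshold over all genes (limma adjusted p = 0.561). Aqp2 was covered by 4768 to 9967 reads per library, and counting alone gives an error of at most 1.45%, well under the spread between mice.

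Aqp3, the channel through which water and glycerol leave principal cells on the blood side, had similar mean levels in both groups. It was at 72.4, 71.6, 67.7 and 73.5 FPKM in the KO kidneys and at 68.3, 87.3, 81.5 and 61.8 FPKM in the WT kidneys. The KO values lay inside the range of the WT values and were closer to each other, with a coefficient of variation of 3.53% in KO and 15.7% in WT. The difference was -0.03 ± 0.12 on the log2 scale, with an interval from -0.29 to 0.24, and its sign turned without WT replicate 2 or WT replicate 3.

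Aqp4, the water-selective channel of the same membrane, more abundant toward the inner medulla, was at 8.88, 7.92, 6.04 and 8.49 FPKM in the KO kidneys and at 9.44, 5.45, 7.0 and 5.66 FPKM in the WT kidneys. WT replicate 1 was the highest of all 8, and the groups overlapped widely. The difference was 0.20 ± 0.16 on the log2 scale (interval from -0.15 to 0.56). Of the 3 collecting duct channels, Aqp2 had the largest mean difference, and the intervals of Aqp3 and Aqp4 included 0.

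**Figure D1:**
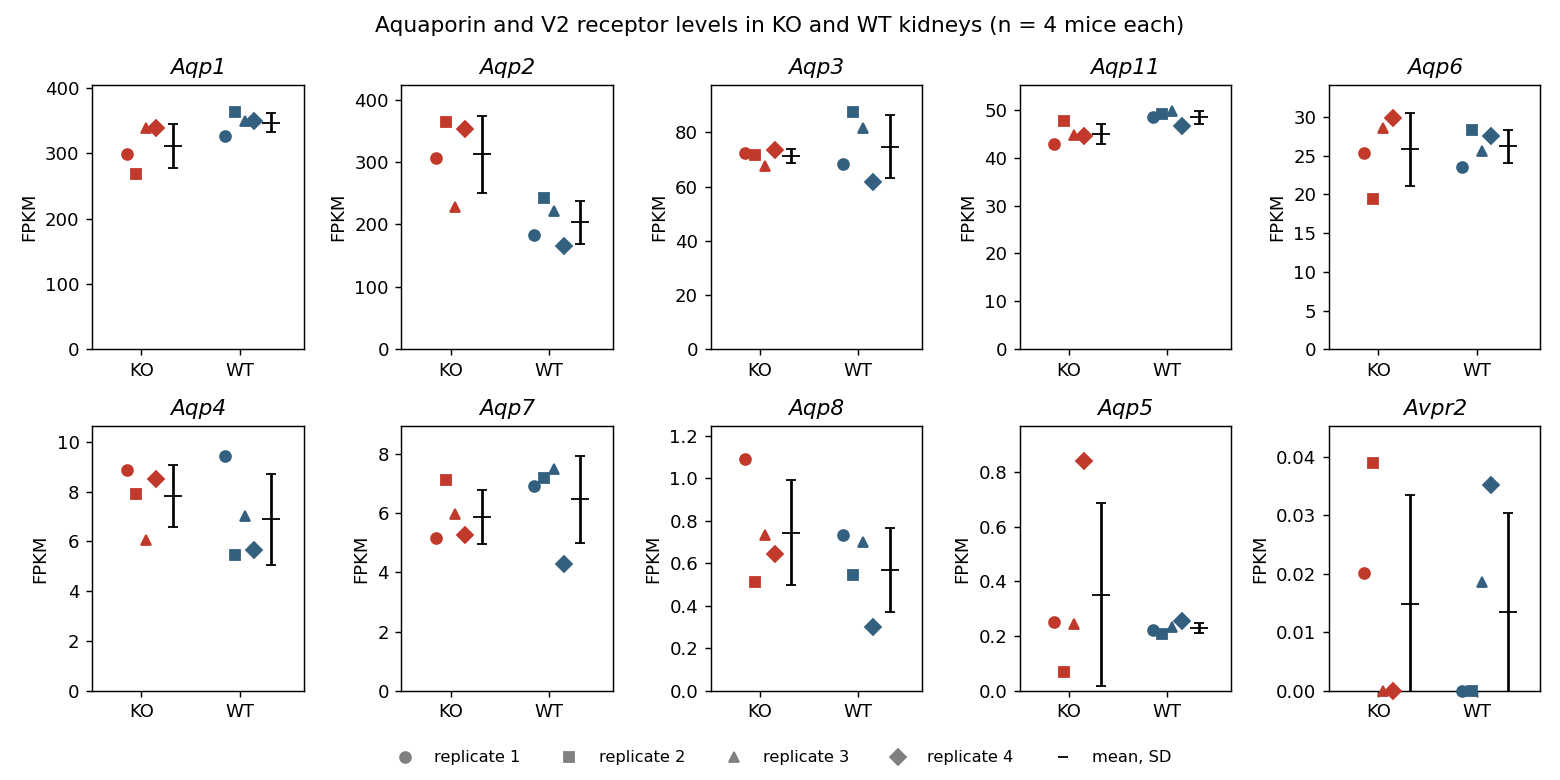
FPKM of the 9 aquaporin genes and Avpr2 in each kidney, 1 panel per gene on its own linear axis from 0, with a symbol per mouse and the mean and SD beside it (n = 4 mice each). Aqp2 is at 228 to 364 FPKM in KO and 166 to 242 FPKM in WT, while Aqp3 lies at 67.7 to 73.5 FPKM in KO inside the WT range of 61.8 to 87.3 FPKM.

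Within a mouse, the ratio of Aqp2 to Aqp3 does not depend on library size or scaling. The ratio was 4.23, 5.09, 3.37 and 4.79 in KO replicates 1 to 4 and 2.69, 2.77, 2.73 and 2.68 in WT replicates 1 to 4. The 4 WT kidneys were nearly equal in this ratio although each gene alone varied among them, and all KO kidneys lay above them, including KO replicate 3, whose Aqp2 level by itself was inside the WT range. The mean ratio was 4.37 ± 0.757 in KO and 2.72 ± 0.0436 in WT (SD, n = 4 each). The spread was 17.3% of the mean in KO and 1.61% in WT. Counting alone gives an error of 2.21% to 2.49% for this ratio in a KO library and 2.25% to 2.57% in a WT library. The WT spread lay below that error, so it cannot be read as the true spread between mice.

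The closeness of Aqp2 and Aqp3 among WT mice was looked at after the values were seen. Among the 12099 other tested genes above 0 in every library, Aqp3 was 4th when genes were ordered by how little their log2 ratio to Aqp2 varied over the 4 WT kidneys (SD 0.0231). Ybx2, Nudt2 and Sirt6 were placed before Aqp3, and Icam2 and Slc1a4 next after it, none of which is among the principal cell markers used here. Hsd11b2, which protects principal cells from glucocorticoids, was at place 883 (SD 0.178). The other principal cell genes placed among WT kidneys were Scnn1g at 1736, Fxyd4 at 2072, Gata3 at 4155, Scnn1b at 4748 and Npnt, the gene of the matrix protein nephronectin, at 7922. Over the 4 KO kidneys Aqp3 was at place 1493 (SD 0.263). Aqp4 was at place 204 over the KO kidneys (SD 0.18) and at place 11448 over the WT kidneys (SD 0.491). With 4 mice a group these places are a description of these libraries and carry no test.

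The ratio of Aqp2 to Aqp1 was also higher in every KO kidney, at 0.673 to 1.36 in KO and 0.474 to 0.667 in WT, though KO replicate 3 was just above the highest WT kidney. Against all other tested genes, the ratio of Aqp2 was above every WT kidney in every KO kidney for 2836 of 12099 genes (23.4%), so ratios without overlap are common for Aqp2 and nothing is read from the count. Against each of 8 other principal cell genes the groups overlapped, as they did against Aqp4 and Aqp6. The ratio of Aqp2 to Hsd11b2 was 2.44 to 3.75 in KO and 1.96 to 2.59 in WT. The ratio to Fxyd4, a regulator of the sodium pump, was 17.1 to 27.0 in KO and 14.1 to 20.1 in WT. Of the 8, only the ratio to Elf5 was lower on average in KO, at a mean of 590 against 971 in WT. Elf5 itself was low, at a mean of 0.605 FPKM in KO and 0.249 FPKM in WT.

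**Figure D2:**
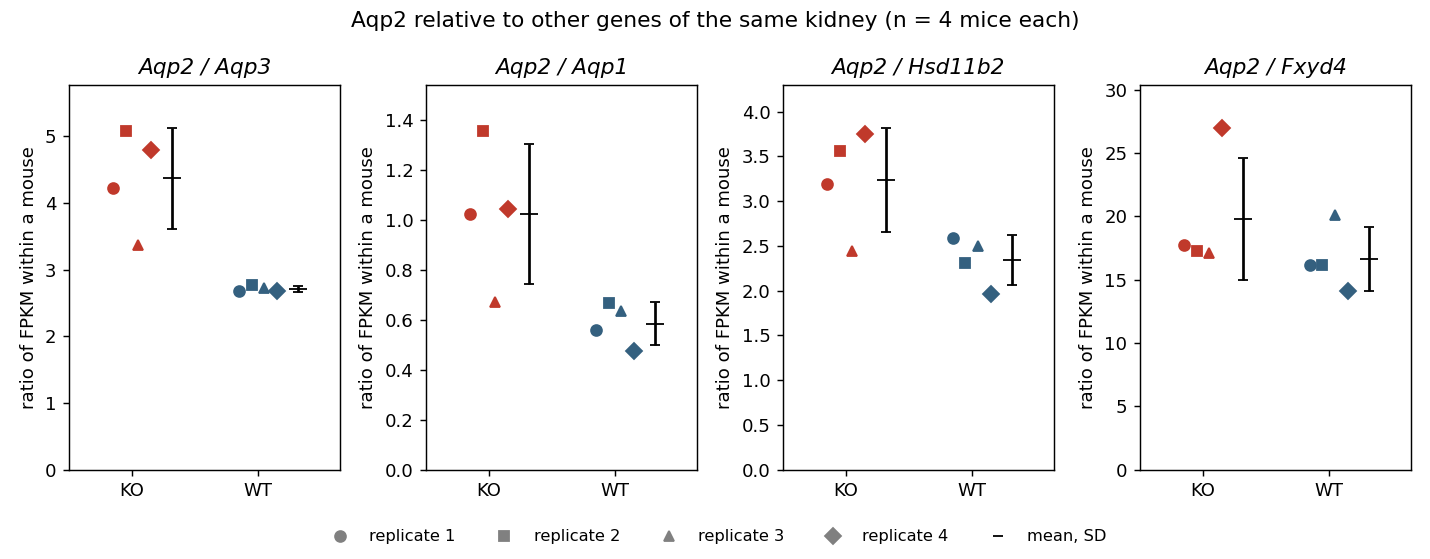
Ratio of the FPKM of Aqp2 to that of Aqp3, Aqp1, Hsd11b2 and Fxyd4 within each mouse, on linear axes from 0, with a symbol per mouse and the mean and SD beside it (n = 4 mice each). The ratio to Aqp3 is 3.37 to 5.09 in KO and 2.68 to 2.77 in WT, whereas the ratios to Hsd11b2 and Fxyd4 overlap between the groups.

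Avpr2, the receptor at the head of this pathway, was nearly absent from the table. The KO kidneys had 1, 2, 0 and 0 reads of it and the WT kidneys 0, 0, 1 and 2 reads, so 4 of the 8 kidneys were listed at 0. Its highest value was 0.039 FPKM, in KO replicate 2. With 3 reads in each group, the ratio of KO to WT was 1.05 with an exact binomial 95% interval from 0.141 to 7.84, which covers counting error only, so no difference in this range could be detected at this depth. Avpr2 lies on chromosome X from 73892102 to 73895502 (mm10, plus strand). In the GENCODE M21 annotation, 2347 of its 2886 exon bases (81.3%) are also exon bases of Arhgap4, a gene on the opposite strand. None of the 9 aquaporins shared exon bases with another gene in that annotation. Arhgap4 had 101, 102, 102 and 117 reads in the KO kidneys and 141, 120, 108 and 108 reads in the WT kidneys. How reads in shared bases were counted, and whether strand was used, is not given in the sources used here, so the values of Avpr2 and Arhgap4 are uncertain and the level of the V2 receptor cannot be read from this table. The part of these shared bases in the low value was not tested.

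Aqp1, the constitutive channel of proximal tubule, thin descending limb and descending vasa recta, was the most abundant of the genes in WT kidneys. It was at 299, 268, 339 and 338 FPKM in the KO kidneys and at 327, 363, 349 and 349 FPKM in the WT kidneys. KO replicates 1 and 2 lay below every WT kidney, and KO replicates 3 and 4 inside the WT range. The mean was 311 ± 34 FPKM in KO and 347 ± 15 FPKM in WT (SD, n = 4 each), a log2 difference of -0.14 ± 0.10 with an interval from -0.35 to 0.08. KO replicate 2, the lowest, was also the library with the lowest proximal tubule markers, whose mean log2 level less the WT mean was -0.64 there, -0.10 to -0.05 in the other KO kidneys and -0.10 to 0.06 in WT. Markers of the last proximal segment (S3), a separate list, went the other way and were highest in KO replicate 2, at 0.67. They were at 0.15 to 0.40 in the other KO kidneys and -0.16 to 0.27 in WT. FPKM values summed to 525275 in KO replicate 2 and to 437496 to 450339 in the other libraries. The part of either marker list, or of the library, in the Aqp1 level was not tested. In a whole kidney, fewer cells of a type and less RNA per cell cannot be told apart.

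Aqp11, an aquaporin of the endoplasmic reticulum of proximal tubule cells whose loss gives cystic kidneys in mice, had the lowest coefficient of variation of the genes among WT kidneys. It was at 42.8, 47.6, 44.7 and 44.4 FPKM in KO and at 48.4, 49.1, 49.7 and 46.5 FPKM in WT, with coefficients of variation of 4.5% in KO and 2.79% in WT. KO replicates 1, 3 and 4 lay below every WT kidney and KO replicate 2 lay among them. The log2 difference was -0.08 ± 0.09, with an interval from -0.27 to 0.11.

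Aqp7 and Aqp8 are the other proximal tubule members. Aqp7, a glycerol-carrying aquaporin of the brush border of the last proximal segment and of fat cells, was at 5.16, 7.12, 5.99 and 5.25 FPKM in KO and at 6.91, 7.2, 7.49 and 4.28 FPKM in WT. The KO values lay inside the WT range, and WT replicate 4 was the lowest of all. The log2 difference was -0.08 ± 0.17. Markers of the last proximal segment (S3) had a mean log2 level, less the WT mean, of 0.15 to 0.67 in KO and -0.16 to 0.27 in WT. Of these 6 markers 4 were above 0 and none passed the threshold. Their part in the Aqp7 level was not tested. Fat cell markers (Adipoq, Plin1, Cidec, Lep, Retn and Cfd) summed to 0.845 to 5.3 FPKM in KO and 0.231 to 4.92 FPKM in WT, and none of them reached a mean of 1 FPKM over all 8 kidneys. The highest in KO was Cfd, at a mean of 1.01 FPKM in KO and 0.462 FPKM in WT. Aqp8, described inside proximal tubule cells in the rat, was at 0.512 to 1.09 FPKM in KO and 0.298 to 0.73 FPKM in WT, from 9 to 29 reads a library. Its ratio of reads, KO to WT, was 1.3 with an interval from 0.931 to 1.83 for counting error only.

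Aqp6, which sits in vesicles of acid-secreting intercalated cells and conducts anions, was at 25.3, 19.4, 28.6 and 29.9 FPKM in KO and at 23.6, 28.3, 25.6 and 27.6 FPKM in WT. KO replicate 2 was the lowest and KO replicate 4 the highest of the 8 kidneys. The log2 difference was -0.01 ± 0.12 (interval from -0.27 to 0.25), and its sign turned under 4 of 15 alternatives. Aqp5, reported in rat kidney in the other class of intercalated cells and otherwise a gland channel, was low. It was at 0.252, 0.0701, 0.245 and 0.84 FPKM in KO and at 0.223, 0.209, 0.235 and 0.254 FPKM in WT. KO replicate 4 had 26 reads of Aqp5 and the other 7 kidneys 2 to 8, so the higher KO sum (42 reads, against 28 in WT) rests on that mouse.

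The remaining mouse aquaporins were scarcely present. Aqp9, a liver glycerol channel, had at most 5 reads in a library. Aqp12, of the pancreas, had 1 read in a single WT kidney, and the lens gene Mip was listed at 0 in all 8 kidneys.

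Of the 10 genes, 7 had a mean of at least 1 FPKM and were tested, and Aqp5, Aqp8 and Avpr2 were not. None of the 7 passed limma's threshold in either direction, where 0.0413% of all genes did, and since the genes were chosen by this contrast nothing is read from that count. Aqp2 was the 1 gene of the 7 at an unadjusted p under 0.05, which 737 of all 12118 genes (6.08%) also reached, and limma-voom on recovered reads also called 0. None of the 7 had KO and WT values without overlap, compared with 2.29% of tested genes with every KO kidney above every WT kidney and 3.01% with every KO kidney below. The log2 difference was above 0 for 2 and below 0 for 5 of the 7, with a median of -0.03, next to -0.0045 over all genes tested. The median of 7 genes describes them and was not tested.

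Ordered by mean level in WT kidneys, the genes ran Aqp1, Aqp2, Aqp3, Aqp11, Aqp6, Aqp4, Aqp7, Aqp8, Aqp5 and Avpr2. Over all 8 kidneys, Aqp1 and Aqp2 overlapped, as did Aqp4 and Aqp7, and Aqp8 and Aqp5. All other neighbours in this order were apart in every kidney. In KO kidneys Aqp2 and Aqp1 had nearly the same mean, 313 and 311 FPKM, whereas in WT kidneys Aqp1 was 1.71 times Aqp2. Summed over the 9 aquaporins, the KO kidneys had 721 to 854 FPKM and the WT kidneys 661 to 783 FPKM. Aqp2 made up 31.6% to 46.3% of that sum in KO and 25.0% to 30.9% in WT. Aqp1 made up 34.1% to 47.0% in KO and 46.4% to 52.8% in WT.

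The place of Aqp11 depends on the gene length used by the authors. The shortest length at which its FPKM gave whole reads was 1322 bases, while its exons in GENCODE M21 cover 9418 bases. At the longer length it would average 6.3 FPKM in KO and 6.8 FPKM in WT, near Aqp4 and Aqp7 and not above Aqp6. The corresponding lengths differed by less for the other tested aquaporins, such as 1416 and 1419 bases for Aqp2. The ratio of KO to WT for a gene does not depend on its length.

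Other genes of the vasopressin pathway were followed from a list of 57, of which 56 could be matched to 1 row each and 50 were tested. Pde4d was left out because the table lists it under 2 identifiers. None of the 50 passed limma's threshold, and limma-voom also called 0. At an unadjusted p under 0.05 there were 6 of 50 (12.0%), next to 737 of all 12118 genes (6.08%). The log2 difference was above 0 for 21 of 50, with a median of -0.03.

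Hormone and receptor genes came first in that list. Avp, the vasopressin gene, which is made mainly in the hypothalamus, was at 0.0868 FPKM in KO replicate 4 and listed at 0 in the other 7 kidneys, and Avpr1b was listed at 0 throughout. Avpr1a, the V1a receptor, was at 2.78 ± 0.903 FPKM in KO and 2.44 ± 0.607 FPKM in WT (SD, n = 4 each). The 7 genes listed as opposing receptors modulate the collecting duct, but not all of them oppose vasopressin, Ptger4 being 1 that does not. The log2 difference was above 0 for 3 of the 7, Ptger4 among them (0.12). Adora1, the adenosine A1 receptor, was at 1.42 ± 0.338 FPKM in KO and 0.954 ± 0.145 FPKM in WT (limma adjusted p = 0.733), and the endothelin receptor gene Ednrb at 5.37 ± 1.62 FPKM in KO and 6.89 ± 0.784 FPKM in WT.

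Cyclase and kinase genes lay mostly below 0, with 1 of 9 above it and a median log2 difference of -0.19. KO replicate 2 had the lowest mean of this list, -0.37 less the WT mean, while the other KO kidneys were at -0.07 to -0.01 and the WT kidneys at -0.06 to 0.11. Akap11 and Akap7 anchor protein kinase A near AQP2 vesicles. Akap11 was at 6.8 ± 1.12 FPKM in KO and 8.25 ± 0.802 FPKM in WT. Akap7 was at 4.91 ± 0.137 FPKM in KO and 5.89 ± 0.87 FPKM in WT. Cyclic AMP phosphodiesterases end the signal, and 1 of the 3 tested was above 0. Pde4b was at 2.42 ± 0.303 FPKM in KO and 2.92 ± 0.403 FPKM in WT, and Pde4c at 30.4 ± 3.14 FPKM in KO and 33.8 ± 1.81 FPKM in WT. None of these genes passed the threshold.

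Transcription factors of the collecting duct had the lowest p of the pathway. Elf3, an epithelial ETS factor, was at 8.25 ± 1.12 FPKM in KO and 5.78 ± 0.746 FPKM in WT, a log2 difference of 0.47 ± 0.12 (limma adjusted p = 0.467). Gata3, a factor of collecting duct development, was at 6.15 ± 0.364 FPKM in KO and 4.83 ± 0.264 FPKM in WT, a difference of 0.32 ± 0.09 (limma adjusted p = 0.503). Neither passed the threshold. In all, 6 of 9 factors were above 0, with a median of 0.17.

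Trafficking genes, which move AQP2 to and from the membrane, had 6 of 18 above 0 and a median of -0.03. Vamp2, a SNARE protein of AQP2 vesicles, was at 24.8 ± 3.01 FPKM in KO and 30.7 ± 1.27 FPKM in WT, a difference of -0.28 ± 0.08 (limma adjusted p = 0.568). Anxa2, a membrane fusion protein, was at 19.5 ± 3.1 FPKM in KO and 17.0 ± 1.29 FPKM in WT. Of other genes that vasopressin regulates, Slc14a2, the urea transporter of the inner medulla, was at 10.8 ± 3.3 FPKM in KO and 7.14 ± 2.96 FPKM in WT (limma adjusted p = 0.819). Scnn1b, a sodium channel subunit, was at 21.8 ± 1.13 FPKM in KO and 21.2 ± 2.81 FPKM in WT.

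**Figure D3:**
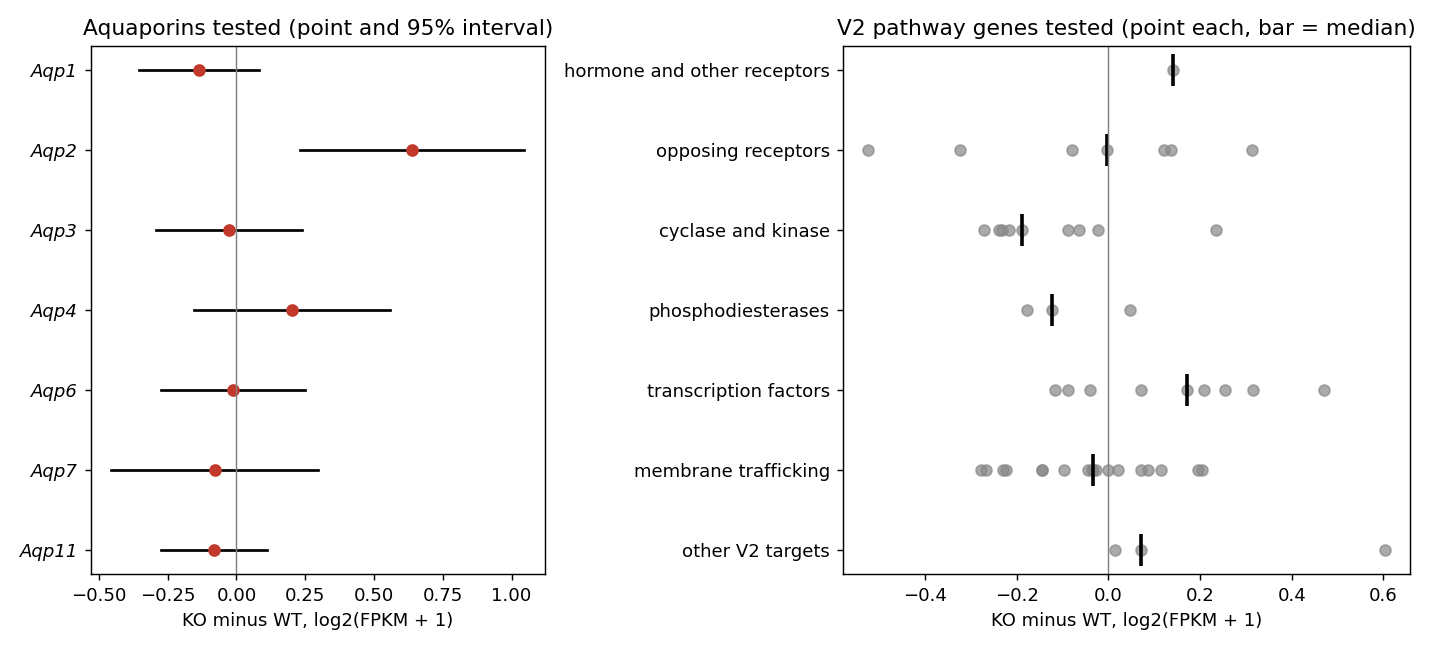
KO minus WT differences on the log2(FPKM + 1) scale, with the 7 tested aquaporins and their 95% intervals on the left, and the 50 tested pathway genes by role on the right, a point per gene and a bar at the median. The interval of Aqp2 runs from 0.23 to 1.05 and those of the other 6 include 0, and the role medians lie between -0.19 and 0.17.

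Markers of cell types that carry or surround these channels were compared beside them. Principal cell markers, which include Gata3, Scnn1b and Scnn1g but no aquaporin, summed to 179 to 199 FPKM in KO and 152 to 193 FPKM in WT, with 7 of 7 tested markers above 0 and a median of 0.07. Intercalated cell markers summed to 134 to 145 FPKM in KO and 134 to 146 FPKM in WT. Thin limb markers, among them Cryab and Slc14a2, summed to 72.7 to 138 FPKM in KO and 54.0 to 60.4 FPKM in WT, without overlap and with 3 of 4 above 0. Most of that sum was Cryab, a small heat shock protein, at 92.5 ± 23.6 FPKM in KO and 46.1 ± 2.57 FPKM in WT, and the mean log2 level of the list overlapped, at 0.16 to 0.76 in KO and -0.18 to 0.19 in WT. Urothelium markers, the lining of the renal pelvis, summed to 17.4 to 42.7 FPKM in KO and 4.72 to 12.9 FPKM in WT, also without overlap and with 7 of 7 above 0. At an unadjusted p under 0.05 there were 1 of 7 principal cell, 2 of 4 thin limb and 7 of 7 urothelium markers, next to 6.08% of all genes, and the lowest limma adjusted p of these lists was 0.129, that of Cryab. None of these lists had a marker at 0 in all kidneys. Among the KO kidneys, replicate 3 had the lowest Aqp2, thin limb sum (72.7 FPKM) and urothelium sum (17.4 FPKM). By urothelium sum the order of the other KO kidneys differed. Replicate 2, with the highest Aqp2, was at 19.8 FPKM. Replicate 1, with less Aqp2 than replicates 2 and 4, was the highest, 42.7 FPKM. The order by thin limb sum differed too, since replicate 4 was the highest (138 FPKM). In mean log2 level of the thin limb list, KO replicates 2, 4, 1 and 3 were at 0.76, 0.64, 0.29 and 0.16, the order of their Aqp2. Among WT kidneys these orders differed, since replicate 1 was the highest of that list (0.19) and replicate 2 the highest in Aqp2. By Cryab alone, the KO kidneys were ordered 4, 1, 2 and 3, at 119, 97.5, 91.6 and 61.9 FPKM. KO replicate 2 was highest in another marker of the list, Fst, at 2.14 FPKM against 0.55 to 0.998 FPKM in the other KO kidneys. Slc14a2 is in the thin limb list and also among the genes counted above as regulated by vasopressin. Early response and heat shock genes summed to 107 to 173 FPKM in KO and 58.9 to 78.8 FPKM in WT. The part of what these markers stand for in the Aqp2 level was not tested.

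**Figure D4:**
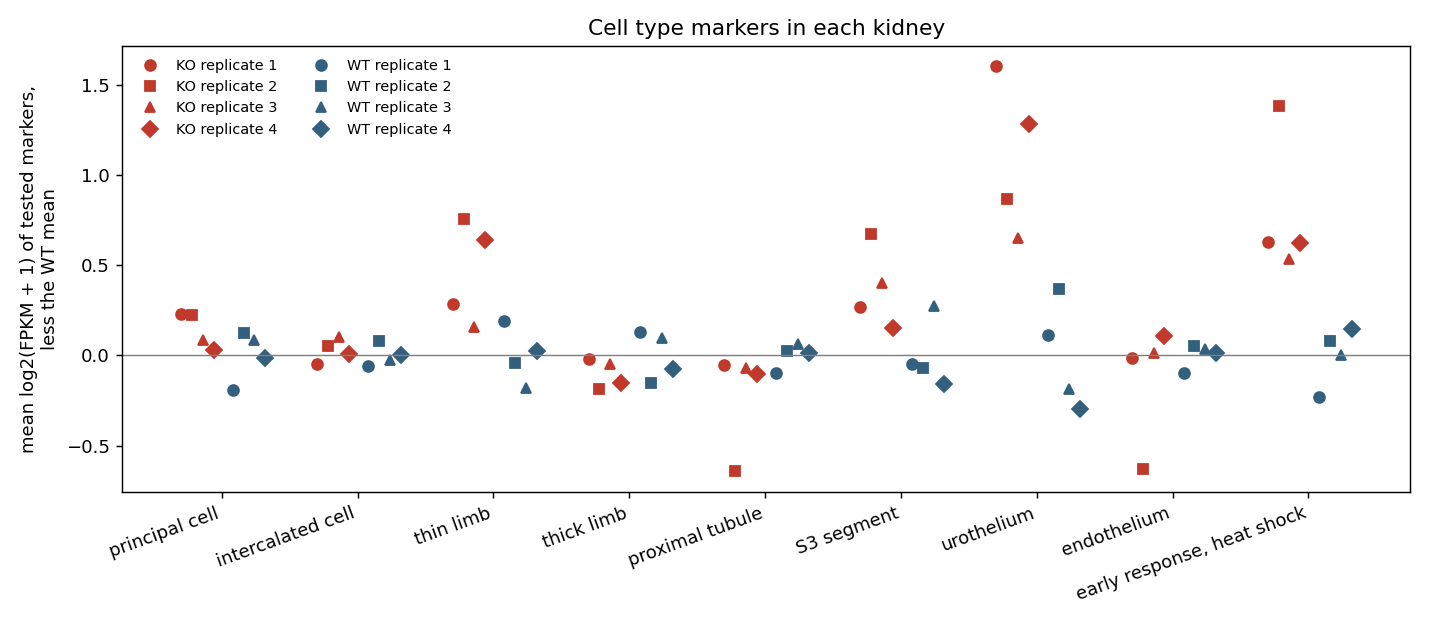
Mean log2(FPKM + 1) of the tested markers of each cell type in each kidney, less the WT mean, with a symbol per mouse and the line at 0 marking the WT mean. Urothelium markers lie at 0.65 to 1.60 in KO and -0.30 to 0.37 in WT, and principal cell markers at 0.03 to 0.23 in KO and -0.19 to 0.12 in WT.

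The genes whose levels over the 8 kidneys were most like those of Aqp2, by the root mean square difference of log2 levels centred on each gene's mean, were Lypd2 (0.123), Serinc2 (0.151), Tbx10 (0.154), Krt18 (0.156) and Epor (0.171). A gene without any variation would be at 0.414 from Aqp2. Lypd2 was at 3.49, 4.66, 2.33 and 4.2 FPKM in the KO kidneys and at 1.35, 2.42, 1.62 and 1.15 FPKM in the WT kidneys. Its KO replicate 3 lay among the WT values, as did that of Tbx10, while KO replicate 3 of Serinc2, Krt18 and Epor lay above every WT kidney. Krt18, a keratin of simple epithelia, was at 14.9 ± 3.46 FPKM in KO and 8.06 ± 0.592 FPKM in WT, and Epor, the erythropoietin receptor gene, at 4.44 ± 0.91 FPKM in KO and 2.37 ± 0.397 FPKM in WT. None of these 5 genes passed limma's threshold (adjusted p = 0.181 to 0.816). Nearest to Aqp3 were Vps8, Pigu, Gja5, Ptpn22 and Fuz, at 0.0699 to 0.0816, where a gene without variation would be at 0.154. For Avpr2 no such search was made, since its values come from 0 to 2 reads.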

How the data were processed

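The authors deposited 1 table with a value per gene and mouse and no unit in its header. These deposited values were taken to be FPKM, because column totals differ and each gene's values step by what 1 read is worth at its length. The submitters' processing notes list STAR 2.5, CASAVA, DESeq2 and HTSeq 0.6.1 and build mm10. What each tool did, the annotation, filters and strand use are not stated in them, and so not given in the sources used here.

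Library totals and reads per gene were worked out from the FPKM steps with a fitted length per gene. The length taken was the shortest that gave whole reads. All 22945 genes above 0 gave whole reads within 0.002 reads. With totals shifted by up to 0.1% this held for 0 of 500 genes, drawn from those with a mean of at least 1 FPKM. Genes below that mean, such as Aqp5, Aqp8 and Avpr2, were not in this control. The binomial intervals of the read ratios of Avpr2 and Aqp8 cover counting error only, and PCR copies were not marked. Intervals of log2 differences come from limma and include the spread between mice.

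FPKM were scaled by TMM factors computed from these reads. limma 3.58.1 (R 4.3.3, trend and robust options) was run on log2(scaled FPKM + 1) for genes with a mean of at least 1 FPKM, with Benjamini-Hochberg adjustment over all of them at 0.05. The procedure was also run on simulated data with the same dispersion in every library. That run does not cover a library that stands apart, such as KO replicate 2. FPKM are printed as deposited, with SD over 4 mice. Mice were grouped by the genotype label. Replicate numbers only name mice.

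One thin limb marker is not reported here and was left out of its list. The 10 genes and the lists were chosen with earlier results of these data known. Named besides the 10 genes were up to 2 genes of each pathway list by lowest p, the other aquaporins, the 5 genes nearest to Aqp2 and to Aqp3 in pattern, chromosome neighbours and C1qtnf1. Ratios within a mouse, places by ratio to Aqp2, single markers and Arhgap4 were chosen after their values were seen. Positions and exon overlap come from GENCODE M21, matched by identifier for 34490 of 35275 genes. Alternatives covered scaling, filter, pseudocount, limma-voom, array weights and leaving out each mouse.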

Additional observations from a re-analysis of the deposited data

How the results depend on the processing

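None of the 7 tested aquaporins and none of the tested pathway genes passed the threshold under any of the 15 alternatives, and Aqp5, Aqp8 and Avpr2 did not where a lower filter admitted them. The log2 difference of Aqp2 lay between 0.41 (array weights) and 0.78 (without KO replicate 3), with an adjusted p of 0.19 to 0.961, and was 0.52 without KO replicate 2. Aqp1, Aqp4 and Aqp11 kept their sign under all 15. Aqp3, Aqp6 and Aqp7, all near 0, changed sign under 2, 4 and 1 alternatives, within -0.23 and 0.08. Over all genes, limma's count was 2 higher and 3 lower, and with array weights 30 higher and 28 lower. Leaving out 1 mouse at a time gave 2 to 16 higher and 1 to 11 lower genes. KO replicates 2 (9 higher and 11 lower), 3 (16 and 4) and 4 (4 and 5) and WT replicates 1 (2 and 1), 2 (4 and 3) and 3 (2 and 1) moved a count by over 1.5 times. The cause was not tested. Depth limits Aqp5, Aqp8 and Avpr2, with 0 to 29 reads a library. No paired analysis was possible because the labels give no replicate numbers and tie no KO mouse to a WT mouse.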

Other observations

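The genes lie in 2 small clusters and at single places in the genome (mm10). Aqp2, Aqp5 and Aqp6 stand in a row on chromosome 15, with Aqp2 from 99579055 to 99584547, Aqp5 from 99590782 to 99594829 and Aqp6 from 99601400 to 99605477, all on the plus strand. Within about the same stretch the mean level was 313, 0.352 and 25.8 FPKM in KO kidneys and 203, 0.23 and 26.2 FPKM in WT kidneys. Bcdin3d, the nearest gene below Aqp2 with a mean of at least 1 FPKM, was at 6.22 ± 1.31 FPKM in KO and 5.4 ± 0.305 FPKM in WT. Asic1, the nearest above Aqp6, was at 1.71 ± 0.116 FPKM in KO and 1.75 ± 0.27 FPKM in WT. Aqp7 and Aqp3 lie on chromosome 4, from 41033074 to 41048139 and from 41092722 to 41098183, 44.6 kb apart, at 5.88 and 71.3 FPKM in KO kidneys and 6.47 and 74.7 FPKM in WT kidneys. None of the 10 genes lies on chromosome 11, where C1qtnf1 is.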
